A study of Rattus norvegicus with 12 samples.

Results

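The genes described here are 10 neutrophil-attracting CXC chemokines, their receptors and the granulocyte growth factor pair of the rat lung, out of 14919 gene symbols that could be given to the array. They were chosen by name: the ligands Cxcl1, Cxcl2, Cxcl3, Cxcl6, Ppbp and Pf4, the receptors Cxcr1 and Cxcr2, the growth factor Csf3 and its receptor Csf3r. Each had 1 probe, and 9 of the 10 were tested, because the Cxcl6 probe was not well above background on any array. Lung RNA of 12 male rats aged 8 to 12 weeks was hybridised to one-colour Agilent arrays, with 3 rats in each of 4 groups. The control group had air or saline in place of smoke, LPS and agents. The CS + LPS group was exposed to cigarette smoke (CS) with lipopolysaccharide (LPS) given into the trachea, which served as a model of chronic obstructive pulmonary disease (COPD). The CS + LPS + NaHS group had the same exposure after injections of sodium hydrosulfide, a donor of hydrogen sulfide, and the CS + LPS + PPG group had it after injections of propargylglycine, an inhibitor of cystathionine gamma-lyase, an enzyme that makes hydrogen sulfide. No group analysed here had NaHS or PPG without the exposure.

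Neutrophils reach an inflamed lung along gradients of CXC chemokines that carry a glutamate-leucine-arginine motif ahead of the first cysteines, which bind CXCR2 and in part CXCR1. Macrophages, epithelium and endothelium make these ligands when interleukin-1, tumour necrosis factor or bacterial products switch on NF-kappaB. Platelets store the products of Ppbp and Pf4, and granulocyte colony-stimulating factor, the product of Csf3, drives the release of neutrophils from the bone marrow through the receptor encoded by Csf3r. In RNA of whole lung, fewer cells of a type and less RNA per cell cannot be told apart.

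The ligand genes lie in one stretch of chromosome 14 in the rat genome, in the order Cxcl2, Cxcl1, Cxcl3, Pf4, Ppbp and Cxcl6, and Cxcr2 and Cxcr1 lie close to each other on chromosome 9. Promoter sequences from RefSeq (build GRCr8) were at hand for 7 of the 10 genes, not including Cxcl3, Pf4 and Csf3. The 160 bases before the start site of 3 chemokine genes and of Cxcr1 are given here, because the NF-kappaB consensus separates them; capitals mark every match to that consensus on either strand. They lie at chr14:17479322-17479481 (Cxcl1), chr14:17467256-17467415 (Cxcl2), chr14:17596418-17596577 (Cxcl6) and chr9:83220226-83220385 (Cxcr1), all on the minus strand, and are written from 5′ to 3′ of the gene.
Cxcl1: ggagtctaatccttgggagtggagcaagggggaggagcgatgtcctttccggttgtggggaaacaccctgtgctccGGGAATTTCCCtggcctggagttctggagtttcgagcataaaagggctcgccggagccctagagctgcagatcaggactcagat
Cxcl2: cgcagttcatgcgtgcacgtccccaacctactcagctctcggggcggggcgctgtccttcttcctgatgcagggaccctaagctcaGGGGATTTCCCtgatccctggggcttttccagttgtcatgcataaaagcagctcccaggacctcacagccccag
Cxcl6: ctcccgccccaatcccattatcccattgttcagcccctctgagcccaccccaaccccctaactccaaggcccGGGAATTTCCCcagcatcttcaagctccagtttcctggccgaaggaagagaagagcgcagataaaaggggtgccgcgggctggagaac
Cxcr1: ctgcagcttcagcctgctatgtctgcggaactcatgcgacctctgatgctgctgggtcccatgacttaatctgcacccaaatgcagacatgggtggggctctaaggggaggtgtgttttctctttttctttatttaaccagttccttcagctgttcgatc

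In the 250 bases before the start, the consensus was found in Cxcl1, Cxcl2 and Cxcl6, in each as overlapping matches that form a single block. The block began 84 bases before the start in Cxcl1, 74 bases before it in Cxcl2 and 88 bases before it in Cxcl6. Cxcl1 and Cxcl6 shared the letters GGGAATTTCC and Cxcl2 had GGGGATTTCC. No match was found in Ppbp, Cxcr1, Cxcr2 or Csf3r. Of 33469 rat promoters searched in the same way, 6.33% held the consensus. The AP-1 letters TGANTCA, found in 6.34% of all promoters, were in none of the 7. A match of letters says nothing of whether a factor was bound in these lungs.

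The values below are log2 signals scaled to the 75th percentile of each array, so a difference of 1 is a doubling. A gene was called differentially expressed (DE) when limma gave a 2-fold change or more and an unadjusted p under 0.05, the rule of the study's methods with limma in place of the t-test, and the p adjusted by Benjamini-Hochberg over all 21239 probes tested is given beside it. Between 66.0% and 75.5% of probes were well above background on each array. All 10 lung epithelial markers listed were well above background in at least 1 group. The comparisons with the control share its 3 rats. The arrays lay on 2 slides, with the CS + LPS arrays and control rat 3 on slide 2 and the other 8 arrays on slide 1. Control rat 3 had the lowest 75th percentile of signal and correlated with the other arrays at r = 0.936 to 0.957, against at least 0.975 among the rest. Control rat 3 is thus the only array of another group on the slide of the CS + LPS arrays. For CS + LPS against the control or the treated groups, slide and group therefore cannot be told apart except through control rat 3.

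Cxcl3 and Cxcr1 were the members that changed with the exposure. Cxcl3 was 4.3 times as high in the CS + LPS group as in the control, was lowest among the exposed groups with NaHS, and lay in between with PPG. Cxcr1 was 2.52 to 2.9 times as high as in the control in the exposed groups, with or without an agent. Of the 9 members tested, 2 were DE in the CS + LPS group (Cxcl3 and Cxcr1, both higher), where 4.56% of all probes were DE and 1.65% were DE and higher. The Cxcl3 probe got its symbol from the authors' lists of DE genes in these data. Member counts and medians that include Cxcl3, here and below, are therefore not independent of its change. With NaHS, 2 were DE against the control (Cxcr1 and Ppbp, both higher), against 2.67% and 1.3% of all probes. With PPG, 2 were DE against the control (Cxcl3 and Cxcr1, both higher), against 4.38% and 2.32% of all probes. After adjustment, 1 member passed in the CS + LPS group, none with NaHS and 2 with PPG, where 2.02%, 0.0989% and 4.64% of all probes did. The unadjusted p was under 0.05 for 2, 4 and 4 members, a count whose share over all probes was not taken, here and below. The methods' t-test called 2, 0 and 1 members DE, where it called 2.09%, 1.31% and 2.34% of all probes. The median log2 difference of the 9 members was 0.36, 0.51 and 0.27 in these comparisons, beside −0.04, 0.00 and −0.01 over all probes tested. With NaHS the median is the value of Cxcl3 itself.

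**Figure D1:**
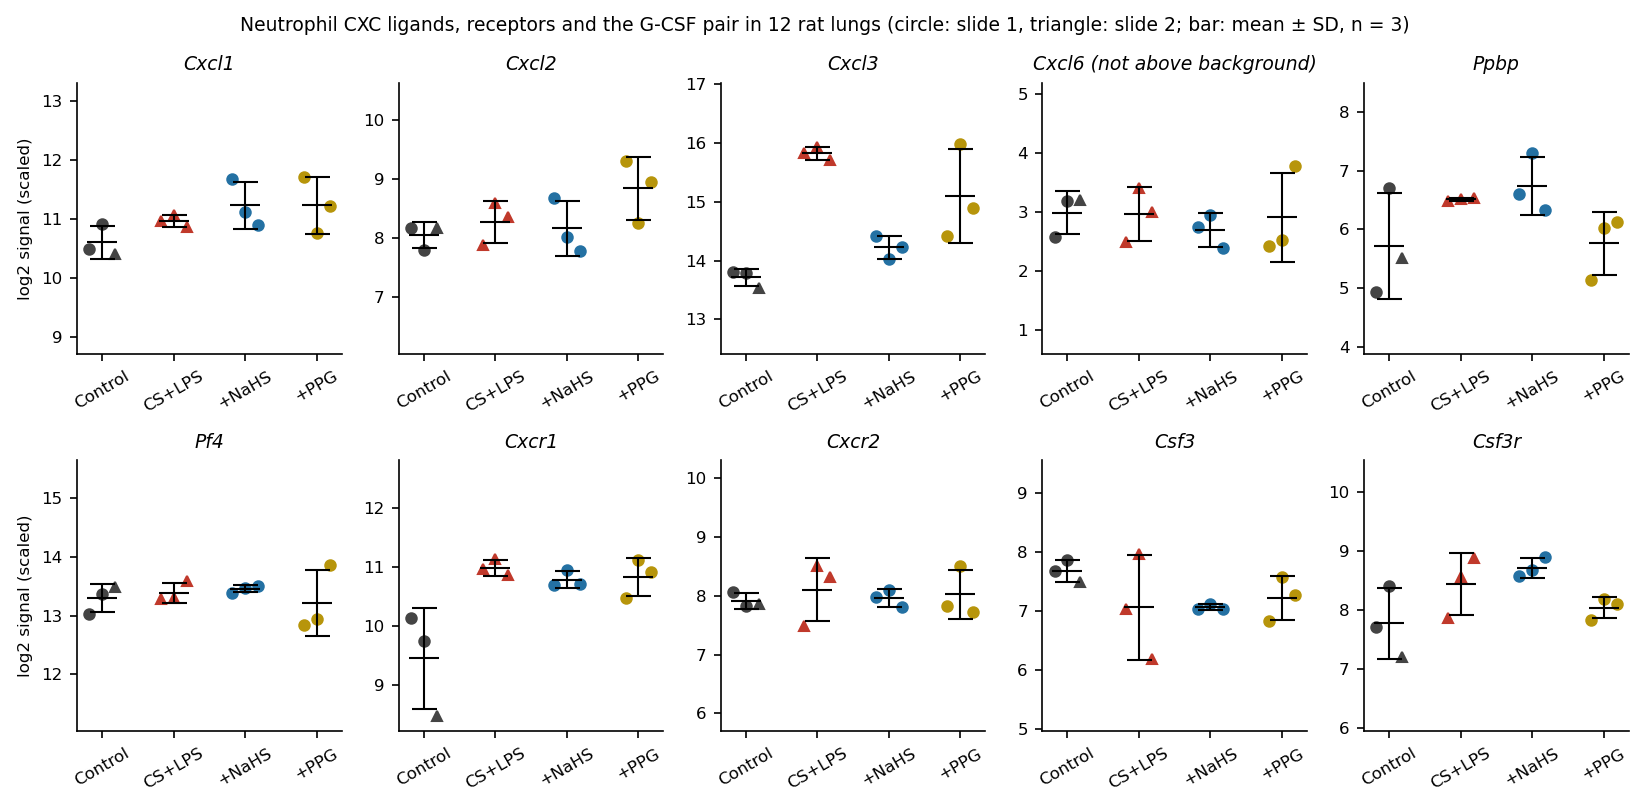
Scaled log2 signal of the 10 genes on each array by group, with circles for slide 1, triangles for slide 2, and bars for the mean ± SD of 3 rats; all panels span the same log2 range. Cxcl3 separates the CS + LPS rats (15.70 to 15.93) from the control (13.54 to 13.81), and Cxcr1 separates the exposed rats (10.48 to 11.13) from the control (8.48 to 10.13).

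Among the ligands, Cxcl3, which encodes a chemokine of the CXCR2-binding kind, showed the largest change. Its log2 signal was 13.81, 13.79 and 13.54 in the control rats and 15.83, 15.93 and 15.70 in the CS + LPS rats. It was 14.42, 14.03 and 14.23 with NaHS and 14.42, 15.98 and 14.89 with PPG. Every exposed rat was above every control rat, the NaHS rats were below all CS + LPS rats, and PPG rat 2 alone among the treated rats lay at the level of the CS + LPS group.

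Cxcl3 was higher in the CS + LPS group than in the control by 2.10 ± 0.31 (SE) on the log2 scale (adjusted p = 0.0157), and the adjusted p was 0.058 without CS + LPS rat 3. With PPG it was higher than the control by 1.38 ± 0.31 (adjusted p = 0.0416). With NaHS the difference from the control was 0.51 ± 0.31, with a 95% interval of −0.18 to 1.20 (adjusted p = 0.407), although the groups did not overlap. The PPG difference leaned on rat 2: without it the difference was 0.94 (adjusted p = 0.0739), under the 2-fold limit. Within slide 1 the PPG difference was 1.29 (adjusted p = 0.0893). Within slide 2 the CS + LPS rats were 2.28 above the single control there, control rat 3.

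Against the CS + LPS group, Cxcl3 was the single member that was DE with NaHS, where 1.7% of all probes were DE and 0.212% were DE and lower. The log2 difference was −1.59, a 3.02-fold decrease, with a 95% interval of −2.28 to −0.91 (adjusted p = 0.0569), and 0.593% of all probes passed the adjusted threshold. With slide as a block, the difference was −1.85 (adjusted p = 0.0426), in a fit that joins the slides through the controls and called 19.9% of all probes DE. With PPG, limma and the methods' t-test each called 0 members DE against CS + LPS, with 1 member at an unadjusted p under 0.05, where 2.05% of all probes were DE and 0.523% passed after adjustment. The Cxcl3 difference there was −0.72 ± 0.31 (adjusted p = 0.452). Without PPG rat 2 it was −1.16 (adjusted p = 0.0464) and DE.

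The direct comparison of the agents, all on slide 1, gave 0 DE members in limma and in the methods' t-test, with 3 members (Cxcl2, Cxcl3 and Ppbp) at an unadjusted p under 0.05, where 0.523% of all probes were DE and 0% passed after adjustment. The Cxcl3 difference of NaHS minus PPG was −0.87 ± 0.31 (adjusted p = 0.563). Leaving out PPG rat 1 made this difference −1.21 (adjusted p = 0.486) and DE. The Cxcl3 means ran from control through NaHS and PPG to CS + LPS, and the neighbours NaHS and control, PPG and NaHS, and CS + LPS and PPG did not differ past the adjusted threshold.

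Cxcl1, an early neutrophil attractant made by epithelium and macrophages, moved less. Its log2 signal was 10.50, 10.92 and 10.40 in the control, 10.96, 11.07 and 10.87 with CS + LPS, 11.68, 11.12 and 10.90 with NaHS and 11.72, 10.76 and 11.22 with PPG. All exposed groups had a higher mean than the control and overlapped it. The difference from the control was 0.36 ± 0.26 with CS + LPS (adjusted p = 0.389), 0.63 with NaHS (adjusted p = 0.266) and 0.63 with PPG (adjusted p = 0.144). The 95% interval of the first was −0.22 to 0.94, so a 2-fold rise lay outside it. The NaHS and PPG means differed by 0.00, with an interval of −0.58 to 0.58 for their difference.

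Cxcl2, a macrophage inflammatory protein, was measured at 8.17, 7.79 and 8.16 in the control and 7.87, 8.58 and 8.35 with CS + LPS. It was 8.68, 8.01 and 7.78 with NaHS and 9.30, 8.25 and 8.95 with PPG. The PPG rats were all above the control, whereas the other exposed groups overlapped it. The PPG difference from the control was 0.79 ± 0.31 (adjusted p = 0.121), under the 2-fold limit, and became 1.08 (adjusted p = 0.113) and DE without PPG rat 2. Cxcl2 differed by 0.23 between CS + LPS and control (adjusted p = 0.642) and by 0.12 between NaHS and control (adjusted p = 0.861). Cxcl6, a ligand of the same group and the third with the NF-kappaB letters, had signals of 2.39 to 3.78 that were not well above background on any array, so no level or change can be given.

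The other ligand genes are those of platelet products. Ppbp encodes the precursor from which platelet-derived neutrophil attractants are cut, and Pf4 encodes platelet factor 4, a weak neutrophil attractant. Ppbp was 4.94, 6.71 and 5.52 in the control, 6.49, 6.51 and 6.54 with CS + LPS, 6.60, 7.29 and 6.33 with NaHS and 5.15, 6.03 and 6.12 with PPG. It was well above background on 11 of 12 arrays, the exception being control rat 3. The control rats spread over most of the range, while the NaHS and PPG rats did not overlap.

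Ppbp was DE with NaHS against the control, at 1.02 ± 0.42 (adjusted p = 0.261). The call was lost without control rat 1 (0.62), control rat 3 (0.91), NaHS rat 1 (1.09) or NaHS rat 2 (0.74). It was also lost with outlier spots kept (0.90), with the methods' t-test, and with normexp background correction, where the difference was 0.21 (adjusted p = 0.557). Slide as a block (0.91) is for this comparison the same fit as leaving out control rat 3. Between NaHS and PPG the difference was 0.98 ± 0.42 (adjusted p = 0.563). Pf4 stayed within 12.84 to 13.86 on all arrays. Its differences from the control ran from −0.08 to 0.16, and their 95% intervals lay within −0.62 to 0.70.

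The 3 other platelet markers tested (6 of the 11 listed, Itga2b and Gp1ba among them, were not tested) had a summed signal of 2074 to 3939 in the control, 3103 to 4104 in the CS + LPS rats, 3522 to 4608 in the NaHS rats and 1973 to 4064 in the PPG rats. The groups overlapped. The part of platelets in the Ppbp values was not tested.

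**Figure D2:**
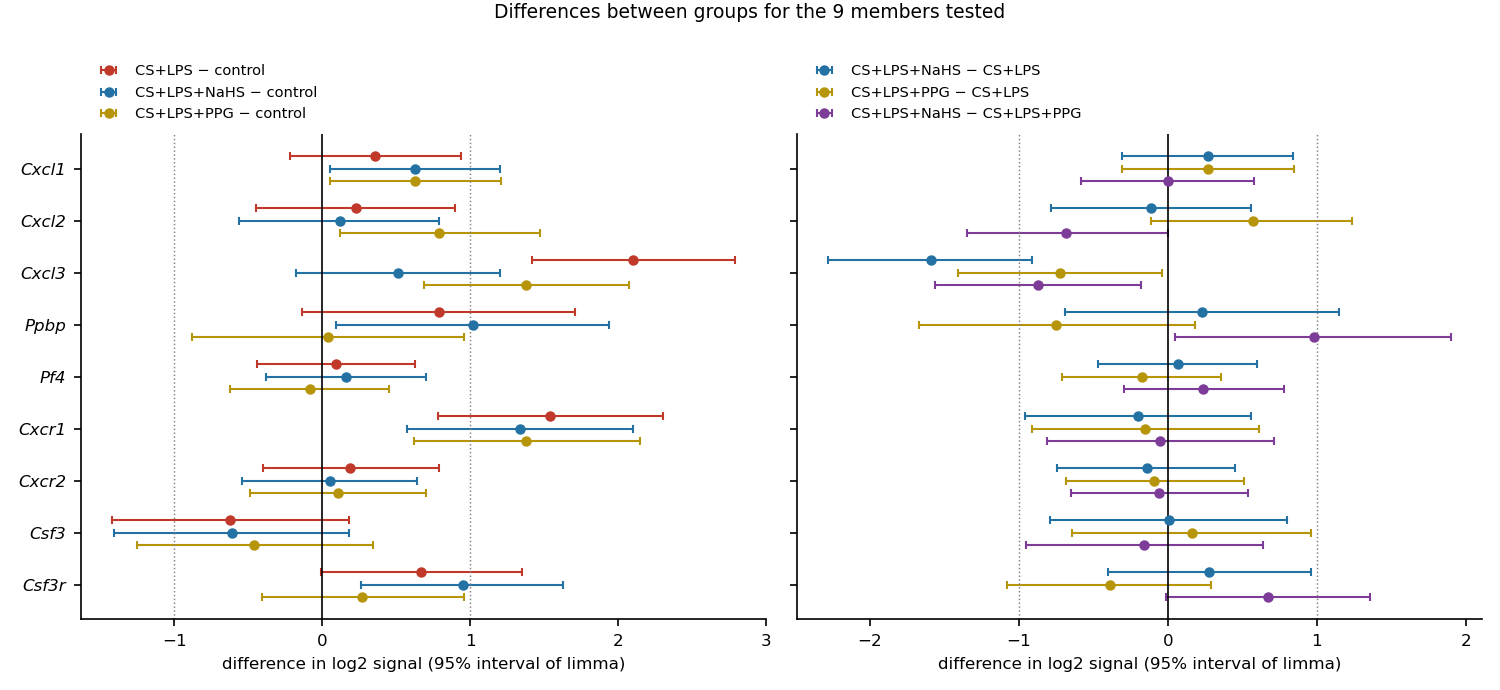
Difference in log2 signal between groups for the 9 members tested, with 95% intervals from limma; the left panel shows the exposed groups minus the control, the right panel the treated groups minus CS + LPS and NaHS minus PPG, and dotted lines mark the 2-fold limit. The intervals of Cxcl3 and Cxcr1 lie above 0 with CS + LPS, and Cxcl3 with NaHS lies below 0 against CS + LPS (−2.28 to −0.91).

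The receptors differed from each other. Cxcr1 was 10.13, 9.74 and 8.48 in the control, 10.96, 11.13 and 10.86 with CS + LPS, 10.70, 10.95 and 10.71 with NaHS and 10.48, 11.12 and 10.91 with PPG. Every exposed rat was above every control rat, and control rat 3 was lowest by more than a doubling. Against the control, Cxcr1 was higher by 1.54 ± 0.35 with CS + LPS (adjusted p = 0.0502), 1.34 ± 0.35 with NaHS (adjusted p = 0.141) and 1.38 ± 0.35 with PPG (adjusted p = 0.0485).

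The size of the Cxcr1 change rested in part on control rat 3. Without it the difference was 0.85 with NaHS (adjusted p = 0.153) and 0.90 with PPG (adjusted p = 0.0448), both under the 2-fold limit. Within slide 1, which leaves out the same rat and the CS + LPS group, the sizes were equal to these, with adjusted p = 0.143 and 0.0532. The methods' t-test did not call the NaHS and PPG differences. Without control rat 3 the CS + LPS difference was 1.05 (adjusted p = 0.0381) and still DE, whereas within slide 2, against control rat 3 alone, it was 2.51. Control rat 3 also had the highest summed signal of 10 markers of other tissues among the 12 rats (47880, the next being 26130), with the heart gene Myh6 at 14.78 against 3.42 and 4.09 in the other controls and the fat gene Adipoq at 11.61 against 3.68 and 4.32. The part of this in Cxcr1, and in the other differences that shrink without that rat, was not tested. The exposed groups lay within 0.20 of each other, with 95% intervals from −0.96 to 0.71. With slide as a block, the log2 difference of Cxcr1 from CS + LPS was −1.66 with NaHS and −1.61 with PPG (adjusted p = 0.00861 and 0.0093), in a fit that called 19.9% and 19.4% of all probes DE in these comparisons and in which control rat 3 sets the offset between slides.

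Cxcr2, the main receptor of these ligands on neutrophils, was 8.06, 7.82 and 7.85 in the control and 7.49, 8.50 and 8.32 with CS + LPS. It was 7.97, 8.10 and 7.81 with NaHS and 7.83, 8.50 and 7.73 with PPG. All groups overlapped. The differences from the control were 0.19, 0.05 and 0.11, with 95% intervals inside −0.54 to 0.79, so a doubling lay outside each.

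Csf3 was 7.68, 7.87 and 7.49 in the control and 7.03, 7.97 and 6.18 with CS + LPS, the widest spread of any group for this gene. It was 7.04, 7.12 and 7.04 with NaHS and 6.82, 7.57 and 7.27 with PPG. The NaHS rats were all below the control, with a log2 difference of −0.61 ± 0.36 (adjusted p = 0.391). The CS + LPS difference was −0.62 ± 0.36 (adjusted p = 0.29), and without CS + LPS rat 2 it was −1.07 (adjusted p = 0.0933) and DE.

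Csf3r was 7.71, 8.40 and 7.19 in the control, 7.86, 8.56 and 8.88 with CS + LPS, 8.57, 8.67 and 8.90 with NaHS and 7.83, 8.18 and 8.10 with PPG. The NaHS rats were above all control and all PPG rats. The differences from the control were 0.67 ± 0.31 with CS + LPS (adjusted p = 0.205), 0.95 ± 0.31 with NaHS (adjusted p = 0.198) and 0.27 ± 0.31 with PPG (adjusted p = 0.575). None was DE. The NaHS difference became DE without control rat 2 (1.27), without NaHS rat 1 (1.02) and with quantile normalization (1.06). The CS + LPS difference became DE with slide as a block (1.25, adjusted p = 0.0222), a fit that called 22.7% of all probes DE, and within slide 2 (1.25, adjusted p = 0.0861).

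Over the 9 members, groups that did not overlap were counted for 2 members between CS + LPS and control, 4 between NaHS and control and 3 between PPG and control. Over all probes the shares were 25.2%, 24.8% and 33.2%. The counts were 1, 1 and 2 for NaHS against CS + LPS, PPG against CS + LPS and NaHS against PPG, where 20.5%, 19.1% and 25.2% of all probes did not overlap.

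Summed signals of leukocyte markers, in which the brightest genes weigh most, were higher in the exposed groups. The summed signal of 16 neutrophil markers other than the members was 21980 to 34150 in the control, 49700 to 79650 in the CS + LPS rats, 40900 to 65000 in the NaHS rats and 50260 to 75930 in the PPG rats. Of 18 neutrophil markers tested, members Cxcr2 and Csf3r included, 5, 5 and 7 were DE against the control, all higher, with Elane not tested. Over all probes 4.56%, 2.67% and 4.38% were DE. The methods' t-test called 3, 2 and 4 of the 16 markers other than the members, and 2.09%, 1.31% and 2.34% of all probes. Without control rat 3, the limma calls against the control were lost for all of these markers except Lcn2 and Fcnb. With CS + LPS the largest difference was that of Retnlg, which encodes a resistin-like protein of myeloid cells (2.98, adjusted p = 0.165), with overlapping groups. Its call was lost in the methods' t-test and without any 1 of CS + LPS rats 1 and 3 and control rats 1 and 3 (2.24 to 2.68). Trem1, a receptor of myeloid cells, was higher by 1.56 (adjusted p = 0.128), also with overlap, and by 0.93 without control rat 3. Lcn2, a neutrophil granule protein, was higher by 1.42, 1.48 and 1.77 (adjusted p = 0.0144, 0.036 and 0.00712), and Fcnb, a ficolin of neutrophils and monocytes, by 2.78, 2.74 and 2.61. Mpo, the myeloperoxidase of azurophil granules, was well above background on 2 of 3 control arrays. It was −0.52 against the control with CS + LPS (not DE), 1.02 with NaHS and 1.18 with PPG, both DE, and was higher than CS + LPS by 1.54 with NaHS (adjusted p = 0.0394) and by 1.70 with PPG (adjusted p = 0.026). Both Mpo calls against the control were lost without control rat 3 (0.66 and 0.82), within slide 1 and with normexp (0.12 and 0.27). Both Mpo calls against CS + LPS were lost with slide as a block (0.47 and 0.63) and with normexp (0.69 and 0.84).

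The summed signal of 7 macrophage markers was 5857 to 11460 in the control, 17370 to 24020 in the CS + LPS rats, 17090 to 21100 in the NaHS rats and 16450 to 19830 in the PPG rats; Marco, Chil3 and Itgax were not tested. Of these 7, 5, 2 and 3 were DE against the control with CS + LPS, NaHS and PPG, all higher but for Cd163 with CS + LPS. The methods' t-test called 2, 3 and 2 of them. Cd68, a lysosomal protein of macrophages, was higher than the control by 1.39, 1.42 and 1.33. Cd163, a scavenger receptor for haemoglobin complexes, had a log2 difference of −1.39 with CS + LPS (adjusted p = 0.162), a call lost under 9 alternatives, and of −0.80 without CS + LPS rat 3. Its signal was 8.96, 8.90 and 9.10 in the control and 8.80, 7.58 and 6.40 with CS + LPS. Control rat 3 was lowest for both marker lists as for Cxcr1, and all exposed rats were above all control rats for both sums. In the mean log2 signal of the neutrophil markers, NaHS rat 3 (9.18) lay below control rat 2 (9.27). The NaHS rats overlapped the CS + LPS rats in both sums. The part of cell numbers in the Cxcr1 and Cxcl3 values was not tested.

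**Figure D3:**
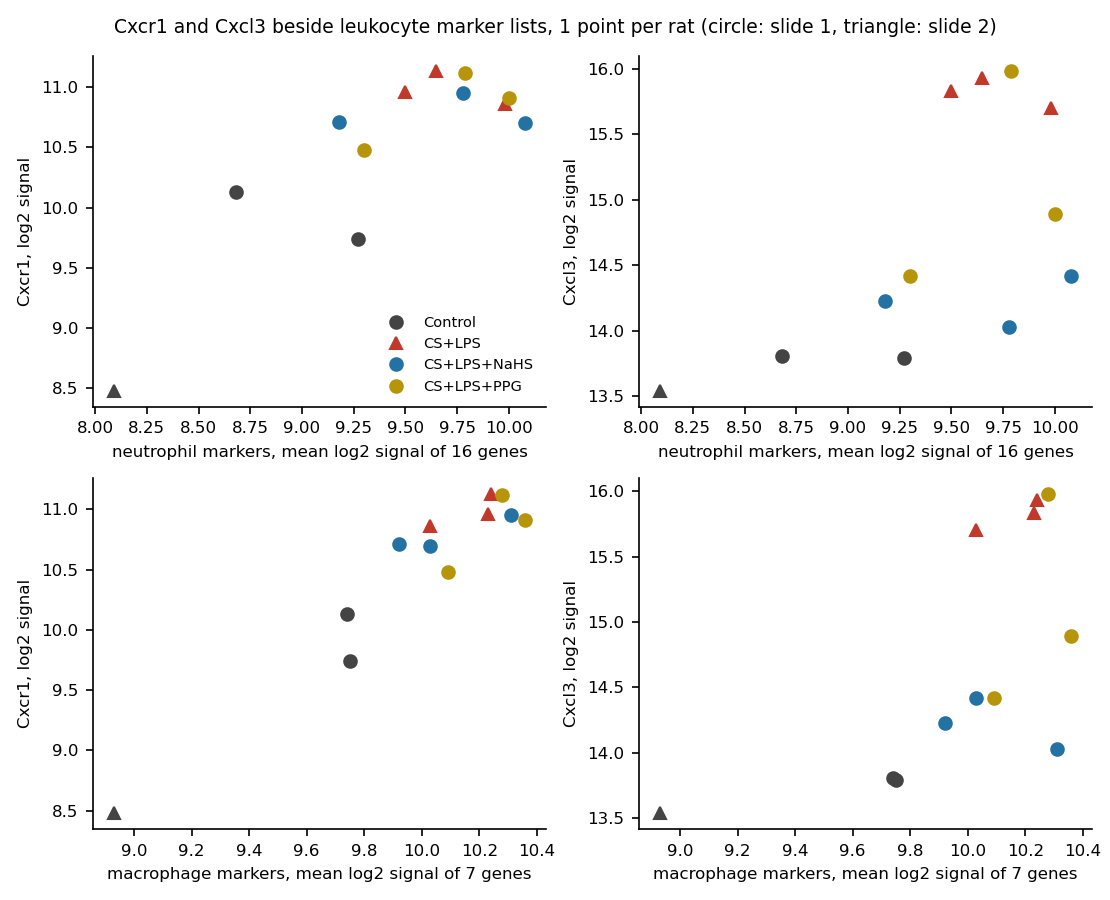
Log2 signal of Cxcr1 (left) and Cxcl3 (right) against the mean log2 signal of 16 neutrophil markers (top) and 7 macrophage markers (bottom), with 1 point per rat, coloured by group, circles for slide 1 and triangles for slide 2. Control rat 3 is lowest on every axis, and the NaHS rats (Cxcl3 at 14.03 to 14.42) lie below the CS + LPS rats (15.70 to 15.93) at overlapping marker levels.

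The other CXC ligands gave a different picture. Of the 8 listed, all tested, limma and the methods' t-test each called 0 DE with CS + LPS and with NaHS against the control (1 and 0 genes at an unadjusted p under 0.05), and limma called 3 DE and higher with PPG: Cxcl9, Cxcl10 and Cxcl11, the interferon-induced ligands of CXCR3 on T cells. Cxcl10 was 7.76, 7.26 and 7.28 in the control, 7.62, 8.35 and 8.04 with CS + LPS, 7.79, 8.41 and 7.87 with NaHS and 9.12, 8.81 and 10.05 with PPG. Every PPG rat was above all 9 other rats.

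Cxcl10 was higher with PPG than in the control by 1.90 ± 0.32 (adjusted p = 0.0211) and than with CS + LPS by 1.32 (adjusted p = 0.13), and the difference of NaHS minus PPG was −1.31 (adjusted p = 0.563). The Cxcl10 call against CS + LPS was lost with slide as a block (1.10). Cxcl9 was higher with PPG by 1.17 against the control (adjusted p = 0.151) and by 1.16 against CS + LPS (adjusted p = 0.452). Both Cxcl9 calls were lost with the methods' t-test, normexp or the replicate block, among other alternatives, and the first also within slide 1 (1.26). PPG rat 3 was the highest for all 3 genes. Without it the Cxcl9 difference from the control was 0.43 and the Cxcl10 difference from CS + LPS 0.96. The Cxcl10 difference of NaHS minus PPG was then −0.94, and none of these was DE. Cxcl11 was not well above background in any control rat and was so on 2 of 3 PPG arrays. The limma difference of Cxcl11 between PPG and control was 2.13 (adjusted p = 0.0583). Its mean over all 3 PPG arrays was 3.38-fold above the background bound, a size that was not tested. The groups overlapped (PPG rat 2 at 4.79, control rat 3 at 4.83), and the call was lost with normexp (0.44) and the methods' t-test. The receptor gene Cxcr3 was DE and higher than the control in all exposed groups, by 1.37, 1.08 and 1.55 (adjusted p = 0.104, 0.258 and 0.0633). Without control rat 3 these were 0.81, 0.51 and 0.98, none of them DE.

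**Figure D4:**
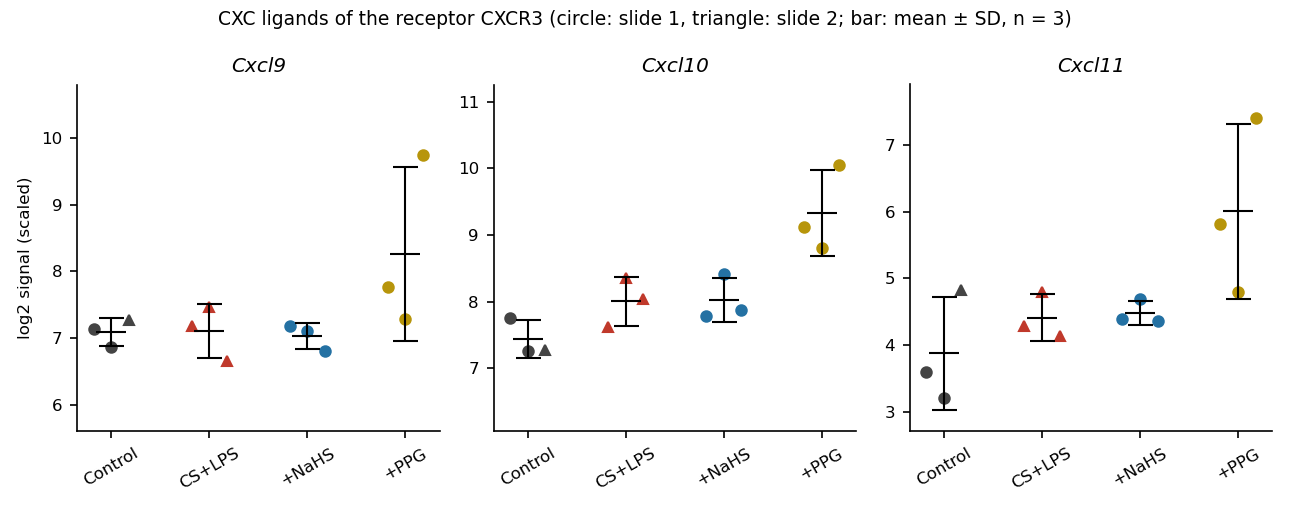
Scaled log2 signal of Cxcl9, Cxcl10 and Cxcl11 on each array by group, with circles for slide 1, triangles for slide 2, and bars for the mean ± SD of 3 rats. For Cxcl10 the PPG rats (8.81 to 10.05) lie above all other rats, and PPG rat 3 is highest in each panel.

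Of 11 tested inducers of the neutrophil ligands and their regulators, 0 were DE with CS + LPS and with NaHS against the control in limma and in the methods' t-test (2 and 1 at an unadjusted p under 0.05), and 3 were DE with PPG in limma. Tnf was higher by 1.03 ± 0.25 (adjusted p = 0.0472), and Il1a and Zfp36, which encodes a protein that speeds the decay of cytokine RNAs, were lower (log2 differences of −1.06 and −1.03, adjusted p = 0.0857 and 0.0484). The Tnf difference was 0.61 with CS + LPS (adjusted p = 0.171) and 0.60 with NaHS (adjusted p = 0.268). Without PPG rat 3 the Tnf, Il1a and Zfp36 differences were 0.86, −0.74 and −0.81 and none was DE. Within slide 1 Tnf and Zfp36 were also under the 2-fold limit (0.97 and −0.79).

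Among 9 adhesion genes tested, Sele, the endothelial selectin that slows passing neutrophils, was DE and higher in all exposed groups. It was not well above background in any control rat, so the sizes of its changes are uncertain. The log2 differences from the control were 1.81 with CS + LPS, 2.32 with NaHS and 2.34 with PPG, each ± 0.31 (adjusted p = 0.0247, 0.036 and 0.0154). With normexp the Sele differences were 0.37, 0.82 and 0.89, none of them DE. Itgb2, the beta chain of the leukocyte integrins, was DE and higher with CS + LPS (1.02, adjusted p = 0.108), and was 0.61 without control rat 3. Of 12 genes of signalling below CXCR2, Fgr, a myeloid Src kinase, was the single DE gene in each exposed group (1.15, 1.24 and 1.17 above the control), and it was under the 2-fold limit in all 3 without control rat 3. Of 5 other neutrophil chemoattractant receptors, C3ar1, which encodes the receptor of complement fragment C3a, was DE with PPG (1.31, adjusted p = 0.0724), and was 0.80 without control rat 3. Of 3 tested genes of the other granulocyte and macrophage growth factors, 0 were DE against the control in limma and in the methods' t-test, with 1 at an unadjusted p under 0.05 in each exposed group.

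The genes whose log2 signal followed each member most closely over the 12 arrays were searched among 10354 genes well above background on every array. The r values are descriptions of points that share groups and slides. Those closest to Cxcr1 were Idh1 (r = 0.984), Slc39a2 (0.983) and Igf1 (0.972). Those closest to Cxcl3 were Nfu1 (0.885), Rars2 (0.877) and Tmem123 (0.874). Tnf was the gene closest to Cxcl1 (0.807), followed by Rab32 (0.793) and Prpf31 (0.779). Cxcl2 had Egr2 (0.877), Cflar (0.868) and Sod2 (0.867), and Pf4 had the platelet gene Gp1bb (0.875), Npy (0.844) and Pdxp (0.808). Cxcr2 was followed by Sh2d4a (0.859), Ddx25 (0.844) and Plekhb2 (0.786), Csf3 by Spag7 (0.954), Pax3 (0.954) and Rims3 (0.952), and Csf3r by Lrrc20 (0.937), Marchf3 (0.913) and Rnf144a (0.909).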

How the data were processed

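Lung RNA of 12 rats was labelled with Cy3 and hybridised to one-colour Agilent rat arrays. The authors deposited the scanner output, with an intensity for each spot as the processed signal of Agilent Feature Extraction 10.7.3.1 per the file headers, which is background-subtracted and not normalized between arrays. In 3 files the deposited intensity had 3 significant digits. No spot was saturated. The number of arrays limits the precision. Whether the 3 rats of a group came from separate exposures is not stated, so the p-values measure the spread between these rats.

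Outlier spots were left out, the log2 intensity was averaged per probe (a median of 10 kept spots for Cxcl1, Pf4 and Ppbp and of 2 for the other members), and each array was shifted to a common 75th percentile. The test covered 21239 of 30367 probes, those that some group had well above background in each of its 3 rats. One limma fit (limma 3.58.1, R 4.3.3) held all 12 arrays and 6 comparisons, and it was tested on simulated data. Probes were named through the RefSeq accession in the files (17514 probes, RefSeq table of GRCr8) or, for 194 probes including that of Cxcl3, by the symbol in the authors' lists of DE genes. A probe named by those lists had thus already been called DE by the authors in these data. Those lists also hold the authors' fold changes and p-values, which were not used. The submitters' notes name Agilent Feature Extraction 10.7, and the array header names build rn4, from which no coordinates were taken.

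The members and gene lists were chosen with earlier results of these data known. Named were the members, the DE genes of the pathway lists (at most the 4 largest changes per list) and the 3 genes most like each member by Pearson r. Genes of the cell type marker lists were named after their values were seen. Alternatives were quantile normalization, other percentile sets, normexp on the median spot signal (the mean signal was not in the files used here) and its background, outlier spots kept, slide and replicate blocks, other filters, fits of 2 groups, the methods' t-test (unpaired, equal variances), each array left out and, chosen after seeing the data, the percentile over all spots and fits within a slide. With slide as a block or within slide 2, the lone control array of slide 2 was assumed to vary like the others. For a probe not well above background in a group, the bound uses on each array the higher of the probe's own signal and the lowest signal well above background.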

Additional observations from a re-analysis of the deposited data

How the results depend on the processing

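Of 1326 member differences under the alternatives, 1259 kept their sign and 67 did not, none of the latter with a DE call; 19 DE calls were lost and 17 gained. The total includes 54 values from averaging probes, which repeat the main fit and could not change. For NaHS and PPG against the control, slide as a block is the same fit as leaving out control rat 3, so these values are counted 2 times. The Cxcl3 and Cxcr1 calls in the CS + LPS group held under every alternative run that holds both groups, at 2.02 to 2.28 and 1.05 to 2.51, and Cxcl3 with NaHS against CS + LPS held under every alternative run that holds both groups. Of the differences not called, Cxcr1 with PPG against CS + LPS turned to 0.03 without PPG rat 1 (range with 1 array left out, −0.30 to 0.03). The causes were not tested beyond what is given here.

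DE members with NaHS against the control numbered 1 rather than 2 with normexp, outlier spots kept, the stricter filter (which leaves out Ppbp) or only the 2 groups fitted, and 0 with slide as a block, within slide 1 or with the methods' t-test. With PPG against the control they numbered 1 with slide as a block, within slide 1 or with the t-test. Slide as a block gave 2 DE members with NaHS and 2 with PPG against CS + LPS, where 19.9% and 19.4% of all probes were DE. Leaving out 1 array gave 2 to 3 DE members for CS + LPS and 0 to 3 for NaHS against the control, 1 to 2 for PPG against the control, 0 to 1 for PPG against CS + LPS and 0 to 1 for NaHS against PPG.

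Members past the adjusted threshold with CS + LPS against the control numbered 2 with normexp, the stricter filter or the percentile over all spots. They numbered 3 with slide as a block, where 8830 of 21239 probes passed, 0 with the t-test, and 0 to 2 with 1 array left out. With PPG against the control they numbered 0 with quantile normalization, the replicate block, no filter, only the 2 groups, the t-test or within slide 1, 1 with slide as a block, and 0 to 2 with 1 array left out. With NaHS against CS + LPS they numbered 2 with slide as a block, where 4890 of 21239 probes passed. They numbered 1 with the stricter filter or only the 2 groups, and 0 to 1 with 1 array left out. With PPG against CS + LPS they numbered 1 with slide as a block, where 4793 of 21239 probes passed, and 0 to 1 with 1 array left out. Same-numbered arrays did not deviate together (r from −0.31 to 0.14 over 18 pairs, and 1 of 12 arrays had its best partner under its own number). No pairing by number was seen, but deviations from means of 3 rats cannot exclude one. The replicate block changed no DE call of a member and gave 0 members with PPG and 1 in the CS + LPS group (Cxcl3, adjusted p = 0.041) past the adjusted threshold. Each member has 1 probe, so averaging probes changed nothing. Dim signals limit Cxcl6 and Ppbp.

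Over all probes, DE calls against the control (969 with CS + LPS, 567 with NaHS, 930 with PPG) became 444, 254 and 384 with normexp, which also moved the median of all probes with CS + LPS to −0.14, and 443, 279 and 498 with the t-test. With slide as a block, 4831 probes were DE with CS + LPS. The adjusted calls with PPG (986) ranged from 12 to 1666 with 1 array left out.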

Other observations

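Markers of other tissues varied between lungs. The summed signal of 10 such markers (of 12 listed for other tissues; Prss1 and Plin1 were not tested) was 2702 to 47880 in the control rats, 5683 to 20350 in the CS + LPS rats, 5630 to 22920 in the NaHS rats and 17880 to 26130 in the PPG rats, and control rat 3 was the highest of the 12 rats. Of the 10, 3 were DE against the control in each exposed group. Cel, a pancreatic lipase, fell in all of them (log2 differences of −1.34, −1.88 and −2.07 with CS + LPS, NaHS and PPG), and the CS + LPS difference, with overlapping groups, was −0.82 without control rat 3. Ctrb1, the pancreatic protease chymotrypsin, was −1.02 with CS + LPS (−0.67 without control rat 3) and 1.37 with NaHS. Fabp3, a fatty acid carrier of heart muscle, was 2.96 with PPG (adjusted p = 0.0484). Ms4a1, a B-cell membrane protein, was higher than the control by 1.07, 1.16 and 1.29 (adjusted p = 0.045, 0.106 and 0.0242), and by 0.55, 0.61 and 0.74 with normexp. Adipoq, the fat hormone adiponectin, was well above background on all 3 PPG arrays (10.64, 7.91 and 10.01) and on 1 of 3 arrays in each other group.

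Of the 4 red cell genes tested, 0 were DE in limma or in the methods' t-test in the 6 comparisons, with 1 at an unadjusted p under 0.05 for PPG against CS + LPS. Of 4 endothelial genes, Cdh5, which encodes the cadherin of endothelial junctions, was DE and higher with NaHS than in the control, CS + LPS and PPG groups, by 1.08, 1.45 and 1.04 (adjusted p = 0.147, 0.061 and 0.563), and the first was 0.94 within slide 1. The second call was lost with slide as a block (1.03). The third was lost with normexp (0.98) and without NaHS rat 3 (0.92), PPG rat 2 (0.93) or PPG rat 3 (0.86). Pecam1, an adhesion protein of endothelium, had log2 differences from the control of −0.55, −0.59 and −0.82 (adjusted p = 0.0746, 0.14 and 0.0229), and Tek, the angiopoietin receptor, of −0.77, −0.29 and −0.47 (adjusted p = 0.0392, 0.36 and 0.089), none of them 2-fold. Of 10 lung epithelial genes, Foxj1, a regulator of ciliated cells, was DE and lower with NaHS than in the control (log2 difference −1.10, adjusted p = 0.258), and the difference was −0.43 without control rat 3.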
